A study of Mus musculus with 16 samples.

Results

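The effect of Mettl14 loss on newly made RNA after the longest labelling, 60 min, was examined in mouse embryonic stem cells of strain C57BL/6. The 4 libraries labelled for 60 min, 2 from Mettl14 Control and 2 from Mettl14 CKO cells (CKO being the labels' name for the conditional knockout), were chosen by the genotype and labelling time in their titles, out of 16 in the series. Cells of both genotypes grew with serum, the cytokine LIF and the inhibitors CHIR99021 and PD0325901. All received 0.5 mM of 5-ethynyl uridine (EU), a uridine analogue that cells build into RNA, 48 h after seeding. How the deletion was induced and how many clones were used is not in the labels. They mention 8 plates without tying these to the 16 libraries, so replicates may share a culture, and p-values measure the spread between libraries, which may be technical. Total RNA is given as the molecule, but nascent polyA RNA as the description.

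METTL14 binds METTL3 in the nuclear complex that adds N6-methyladenosine (m6A) to RNA, where METTL3 holds the catalytic site and METTL14 helps to position the RNA. The mark is known to shorten the life of many transcripts, and in embryonic stem cells its loss is known to hinder the exit from the pluripotent state. The study's title names a role of METTL14 in chromatin that does not need m6A, and its design asks how transcription changes without the protein. Captured EU-labelled RNA holds what was transcribed during the pulse and not yet degraded, so a longer pulse gives RNA turnover more weight.

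The files list genes by Ensembl mouse identifiers without symbols, and 0 of 54446 identifiers could be matched to a symbol. Genes are therefore described as groups by level and response, and 4 of them by identifier. The level of Mettl14 and of stem cell markers, which would check the labels, was not analysed here.

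The 60 min libraries were the deepest, with 26971786 and 28502750 mouse counts in Control replicates 1 and 2 and 20263500 and 26557342 in CKO replicates 1 and 2, against 5109162 to 19092180 in the others. They detected 26261 to 26857 identifiers each. The CKO replicates resembled each other less than the Control replicates did. Over 9161 identifiers with a mean of at least 10 CPM (counts scaled so that each library has the same total) at 60 min, the log2 ratio of replicate 1 to 2 had an SD of 0.12 in Control and 0.28 in CKO. It exceeded 1.5-fold for 6 identifiers in Control and 319 in CKO. CKO replicate 1 also lay farther from Control than CKO replicate 2, with an SD of the log2 ratio to the Control replicates of 0.43 and 0.42 against 0.30 and 0.29. Over the 20204 identifiers tested, log2 CPM had a Pearson r of 0.9797 between the CKO replicates and 0.9869 between the Control replicates. CKO replicate 2 reached 0.9811 and 0.9815 with the Control replicates, and CKO replicate 1 reached 0.9725 and 0.9733. By this measure CKO replicate 2 was no nearer to its own replicate than to Control. By the SD over the 9161 identifiers CKO replicate 2 was slightly nearer to its own replicate, with 0.28 against 0.30 and 0.29. CKO replicate 1 had the fewest counts, and the part of depth in these values was not tested. Results are therefore given with and without single libraries where these move them.

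Total captured RNA per spike-in did not separate the genotypes at 60 min. ERCC RNA, a set of 92 synthetic transcripts, was added after the capture of labelled RNA, so the ratio of mouse to ERCC counts also carries cell number, recovery and capture yield. The ratio was 133 and 131 mouse counts per ERCC count in the Control libraries and 128 and 155 in the CKO libraries, so that 1 CKO library lay below both Control libraries and the other above them. The log2 difference of the means was 0.09 (SE 0.14, 1.07-fold), and the 4 pairs of a CKO with a Control library ranged from −0.05 to 0.24. The exact two-sided permutation p was 1, and 2 libraries against 2 cannot go below 0.33.

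The spike-in itself varied most between the CKO libraries. Of the 92 ERCC species, 27 had at least 100 counts in each 60 min library and held 99.4% of the ERCC counts. After scaling to the ERCC total, the log2 ratio of replicate 1 to 2 over these species had an SD of 0.10 in Control and 0.34 in CKO, where single species differed by −0.94 to 0.43. Taken species by species, the log2 output difference had a median of 0.19, and 24 of 27 species gave a higher output in CKO. The species share the same 4 libraries and were not tested. Without CKO replicate 1 the log2 output difference was 0.23 and without CKO replicate 2 it was −0.05, so its sign rested on a single library.

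**Figure D1:**
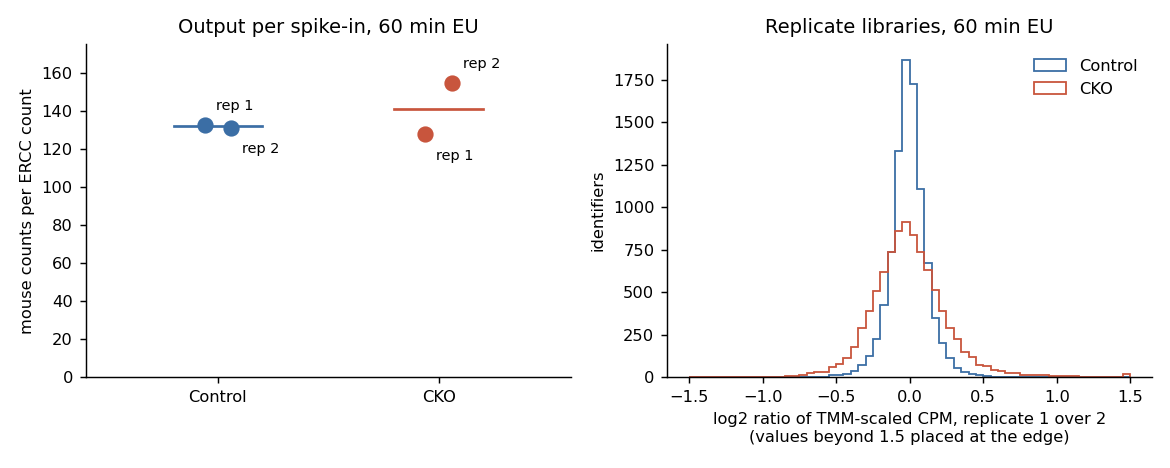
Left, mouse counts per ERCC count in each 60 min library (points) with the group mean (line, n = 2), on an axis from 0. Right, number of identifiers with at least 10 CPM by the log2 ratio of replicate 1 to 2 (bins of 0.05, values beyond 1.5 at the edge). The Control points lie together at 133 and 131, the CKO points at 128 and 155, and the CKO histogram (SD 0.28) is wider than the Control histogram (SD 0.12).

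The make-up of the captured RNA did differ between the genotypes for part of the identifiers tested. Relative to the bulk of genes, 614 identifiers rose and 383 fell in CKO at 60 min (edgeR quasi-likelihood test, Benjamini-Hochberg adjusted p under 0.05), out of 20204 tested. This was 4.93% of those tested, 3.04% higher and 1.9% lower. The test used the 12 libraries at 10, 20 and 60 min with TMM scaling, which sets libraries against each other by the bulk of their genes. The identifiers that rose took 12.1% and 12.2% of the mouse counts in the Control libraries and 17.2% and 15.5% in the CKO libraries. Those that fell took 7.44% and 7.38% in Control and 5.03% and 5.60% in CKO. The shares of the 2 genotypes did not overlap in either set, which follows from how the sets were chosen.

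Most changes were modest in size. The median log2 fold change was 0.59 among the higher calls (quartiles 0.44 and 0.87) and −0.48 among the lower calls (quartiles −0.62 and −0.39). Over all identifiers tested the median was 0.00 (quartiles −0.28 and 0.32). A change of at least 1.5-fold was reached by 309 higher and 115 lower calls. In all 997 calls the CKO libraries lay on 1 side of the Control libraries, but so did many identifiers that were not called. Of all tested, 5694 (28.2%) had both CKO libraries above both Control libraries and 5649 (28%) had both below.

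Large changes were mostly rises. Of the 109 calls that reached 2-fold (0.539% of those tested), 93 were higher and 16 lower in CKO, and 14 higher and 1 lower reached 4-fold. Their mean level at 60 min had a median of 16.7 CPM in the higher set and 16.1 CPM in the lower set, against 6.75 CPM over all tested. Rises outnumbered falls at this size under all 13 other settings run, with 71.0% to 91.1% higher. In 33 of the 93 rises, CKO replicate 1 stood over 1.5-fold above CKO replicate 2, and in 2 the reverse held. Without CKO replicate 1, 28 rises and 6 falls of this size were called, and without CKO replicate 2, 201 and 75. Without Control replicate 1 there were 31 and 6, and without Control replicate 2, 38 and 9.

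The balance of calls moved with the scaling. Among calls of at least 2-fold, 85.3% were higher with TMM, 82.2% with median-of-ratios size factors, 78.4% with library totals and 91.1% with ERCC totals, so the majority stayed the same. Among all calls, TMM put 61.6% in the higher set. Median-of-ratios size factors in edgeR gave 53.8% higher (529 and 454), library totals 46.7% (489 and 559), and DESeq2's own test 49.7% (870 and 879). With ERCC totals as the scale, 287 were called higher and 27 lower. ERCC scaling moved the log2 fold changes by 0.05, less than the smallest called change, and 264 of the 614 higher and 27 of the 383 lower calls passed the test under it.

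**Figure D2:**
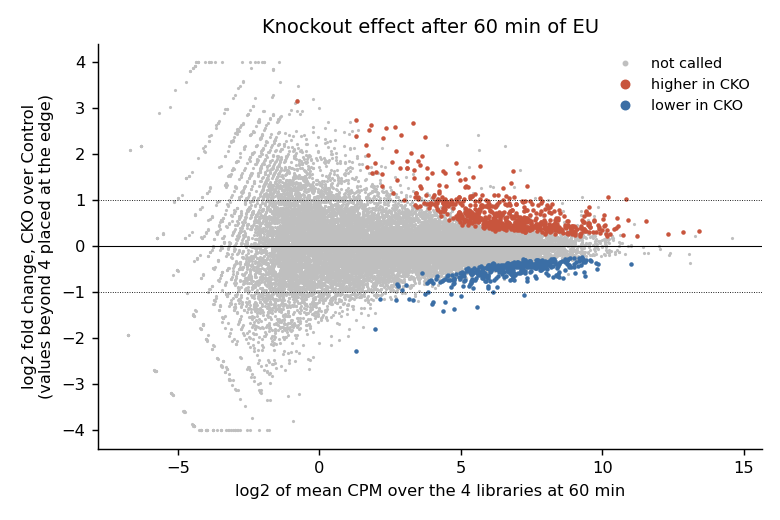
Log2 fold change of CKO over Control at 60 min (y axis, values beyond 4 at the edge) against the log2 of the mean CPM over the 4 libraries (x axis), with 1 point per identifier that had a count at 60 min. Coloured points passed the adjusted p threshold and dotted lines mark 2-fold. The calls beyond the dotted lines are 93 above and 16 below.

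Calls gathered among the identifiers with most counts, where the errors were small. CPM also grows with gene length, which was not used here. With the identifiers in 5 classes of 4040 or 4041 by mean level over the 12 libraries, the most abundant class (median 112 CPM at 60 min) held 411 higher and 284 lower calls, 17.2% of its members. The class below it (median 30.0 CPM) held 146 and 87, and the middle class (median 6.78 CPM) 51 and 11. The class under that held 6 and 1, and the least abundant class 0. At an unadjusted p under 0.05, 1741 identifiers were higher and 1523 lower over all classes. The median standard error of the log2 fold change was 0.10 in the most abundant class, 0.18 and 0.35 in the next 2, and 0.74 and 1.37 in the last 2. The class medians of the log2 fold change lay between −0.02 and 0.10, so no class was shifted as a whole by more than that.

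The 20 most abundant identifiers together took 11.3% and 11.4% of the mouse counts in Control and 11.1% and 12.2% in CKO. Of these, 5 were called higher and 1 lower, with log2 fold changes from −0.39 to 0.56 over the 20, where 3.04% and 1.9% of all tested and 17.2% of the class with most counts were called. The largest log2 ratio between replicates, regardless of sign, was 0.78 in CKO and 0.09 in Control.

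The number of calls moved with each library. With Control replicate 1 or 2 left out, 195 (135 higher) and 224 (151 higher) were called, with CKO replicate 1 left out 303 (205 higher), and with CKO replicate 2 left out 1553 (754 higher). A group with a single library is taken in these fits to vary like the other groups. These fits tested 22711 to 22782 identifiers, against 20204 in the reported fit, so their numbers of calls are not on the same base. In all, 163 identifiers were called in the same direction in each of these 4 fits, 112 higher and 51 lower, which is 16.3% of the 997. Their mean level ran from 22.1 to 10840 CPM, with a median of 151 CPM. Their median log2 fold change was 0.83 for the higher and −0.63 for the lower set, and 27 of the higher and 4 of the lower reached 2-fold.

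**Figure D3:**
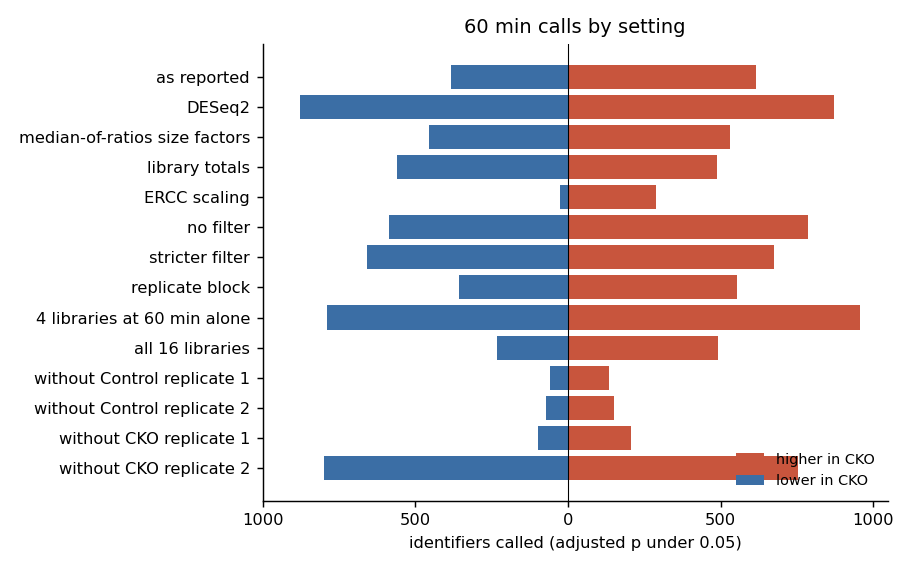
Number of identifiers called at 60 min under the setting reported (top bar) and 13 others, with those higher in CKO to the right of 0 and those lower to the left. The total runs from 195 without Control replicate 1 to 1749 with DESeq2, against 997 as reported.

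Among the identifiers named by size of change, ENSMUSG00000064823.1 had the largest rise of the 586 that qualified (called, a mean of at least 10 CPM over the 4 libraries, no overlap between genotypes). It reached that mean through CKO replicate 1 alone, the other 3 libraries lying below 10 CPM. It had 86 and 151 counts in the Control libraries, 3.19 and 5.30 CPM, and 723 and 199 counts in the CKO libraries, 35.7 and 7.49 CPM. The groups did not overlap, but CKO replicate 1 stood far above the other 3 libraries. The log2 fold change was 2.39 (SE 0.51, edgeR Benjamini-Hochberg adjusted p = 0.0115). Without CKO replicate 1 it was 0.85 (edgeR adjusted p = 0.817), and fitted on the 4 libraries alone it kept its size but not its call (2.38, edgeR adjusted p = 0.345). In the other 12 libraries it lay between 2.64 and 6.31 CPM in both genotypes. Its log2 fold change was 0.12 (SE 0.53) at 10 min and −0.75 (SE 0.52) at 20 min, neither called, and the change at 60 min differed from the mean of both by 2.70 (SE 0.63, edgeR adjusted p = 0.0356). Its place as the largest rise therefore rested on CKO replicate 1. It was chosen by its 60 min change, which by itself favours a difference from the shorter pulses.

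ENSMUSG00000038418.7 came second and was alike in its replicates. It reached the mean of 10 CPM only through the CKO libraries, so the change itself helped it to qualify. It had 5.52 and 4.56 CPM in the Control libraries (149 and 130 counts) and 18.5 and 19.8 CPM in the CKO libraries (375 and 526 counts), with a wide gap between the groups. The log2 fold change was 1.97 (SE 0.39, 3.93-fold, edgeR adjusted p = 0.00633). At 20 min it was higher in CKO as well, with 2.17 and 2.65 CPM in Control and 6.70 and 12.04 CPM in CKO, a log2 fold change of 1.95 (SE 0.41, edgeR adjusted p = 0.0172). At 10 min the Control libraries had 4.28 and 1.81 CPM and the CKO libraries 8.07 and 4.64 CPM. The log2 fold change there was 1.10 (SE 0.42) and did not pass (edgeR adjusted p = 0.067). At 30 min the groups overlapped, with 3.65 and 3.54 CPM in Control and 7.90 and 2.94 CPM in CKO. Leaving out Control replicate 1 or 2 at 60 min raised its edgeR adjusted p to 0.0604 and 0.102.

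ENSMUSG00000057182.14 had the largest fall of the 373 that qualified. It had 32.8 and 27.8 CPM in the Control libraries (884 and 793 counts) and 11.6 and 10.5 CPM in the CKO libraries (235 and 279 counts). Both CKO libraries were far below both Control libraries, a log2 fold change of −1.41 (SE 0.27, edgeR adjusted p = 0.00502). The fall was present at each EU time. Control libraries had 24.9 and 25.5 CPM at 10 min, 26.0 and 25.8 CPM at 20 min and 25.8 and 24.1 CPM at 30 min. CKO libraries had 4.28 and 10.3 CPM at 10 min, 9.53 and 11.1 CPM at 20 min and 17.0 and 18.8 CPM at 30 min. The 8 Control libraries all lay above the 8 CKO libraries. The log2 fold change was −1.73 (SE 0.29) at 10 min and −1.33 (SE 0.27) at 20 min, both called (edgeR adjusted p = 0.000351 and 0.0135). The difference between 60 min and the shorter pulses was 0.13 (SE 0.33, edgeR adjusted p = 0.931). Without Control replicate 1 at 60 min its edgeR adjusted p was 0.065.

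ENSMUSG00000006219.12 fell from 38.1 and 40.1 CPM in the Control libraries (1027 and 1142 counts) to 14.7 and 14.8 CPM in the CKO libraries (297 and 393 counts). The replicates of each genotype nearly coincided. The log2 fold change was −1.36 (SE 0.15, edgeR adjusted p = 6.65e-05), and it was called in each of the 13 other settings, between −1.42 and −1.31. In the values measured the gap was narrower with shorter labelling, but the test of this difference did not pass. It had 44.2 CPM in both Control libraries and 26.5 and 29.3 CPM in the CKO libraries at 10 min, and 31.8 and 38.2 CPM against 23.2 and 20.6 CPM at 20 min. The log2 fold changes were −0.63 (SE 0.15) and −0.68 (SE 0.15), both called (edgeR adjusted p = 0.00731 and 0.0252). The difference between 60 min and the shorter pulses, −0.70 (SE 0.19), did not pass the threshold (edgeR adjusted p = 0.0696). This identifier too was chosen by its 60 min change, which by itself favours a larger gap at that time. At 30 min the Control libraries had 43.7 and 37.4 CPM and the CKO libraries 18.9 and 22.7 CPM.

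**Figure D4:**
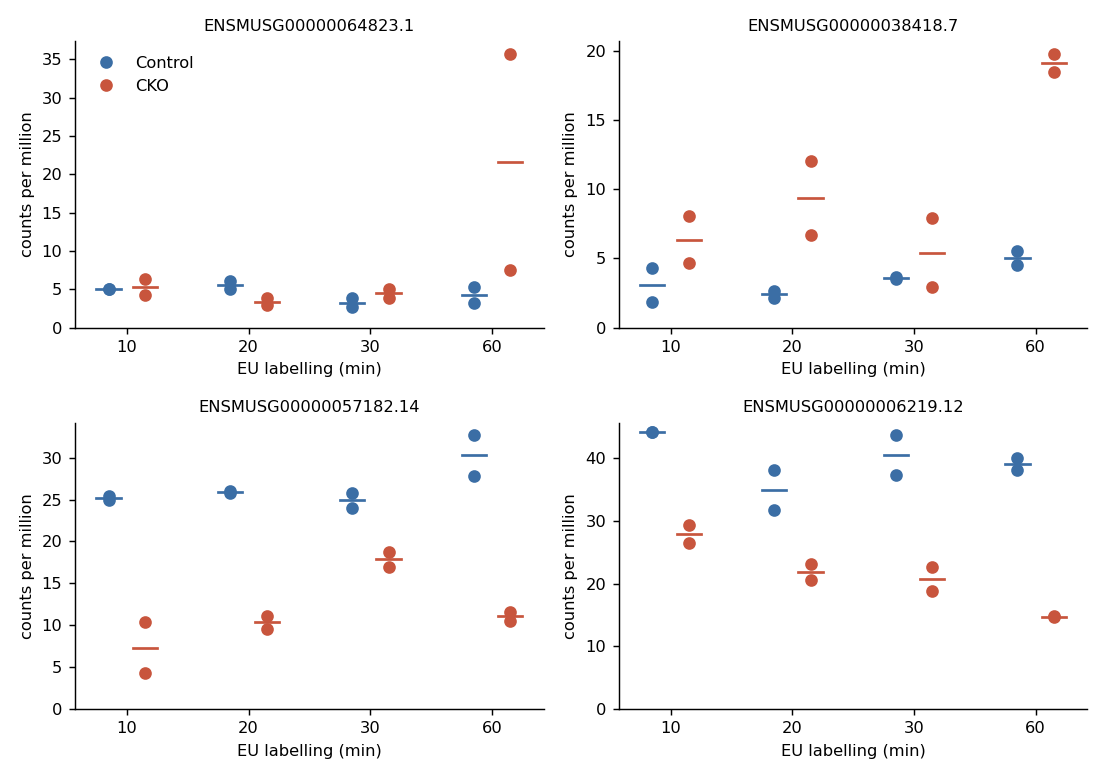
CPM of the 4 named identifiers in each library (points) with the group mean (line, n = 2), by EU labelling time in min, on axes from 0. The 35.7 CPM of a single CKO library sets the rise of ENSMUSG00000064823.1, whereas the CKO points of ENSMUSG00000057182.14 lie under the Control points at each EU time.

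With TMM scaling, the changes at 60 min were largely shared in sign with shorter labelling, which was measured in other libraries. Of the 614 identifiers that rose at 60 min, 478 (77.9%) had a positive log2 fold change at 10 min and 463 (75.4%) at 20 min, against 48.1% and 48.6% of all tested. Of the 383 that fell, 334 (87.2%) had a negative one at 10 min and 343 (89.6%) at 20 min, against 51.9% and 51.4%. The same sign at both 10 and 20 min was seen for 404 of the 614 (65.8%, against 28.9% of all tested) and for 310 of the 383 (80.9%, against 32.2%). The values were smaller at the shorter times, with a median of the mean of both of 0.37 against 0.59 for the rises, and −0.27 against −0.48 for the falls. The sets were chosen on their 60 min values, which by itself favours larger values at that time.

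Fewer of them passed the test at each time on its own. At 10 min 10.9% of those tested were called higher and 11.9% lower. Shares of those tested are not matched for level here. Of the rises at 60 min, 328 were also called higher at 10 min, which is 53.4% of the 60 min rises and 14.9% of the 2197 rises at 10 min. Of the falls, 209 were also called lower, 54.6% of the 60 min falls and 8.69% of the 2404 falls at 10 min. At 20 min 1.24% were called higher and 0.663% lower. There the shared rises numbered 164, 26.7% of the rises at 60 min and 65.6% of the 250 at 20 min, and the shared falls 53, 13.8% and 39.6% of the 134. Rises called at 60 min were called as falls in 60 cases at 10 min and 10 at 20 min, and falls were called as rises in 5 and 0. In all, 122 rises and 48 falls were called at 10, 20 and 60 min.

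Large changes were mostly rises at 20 min too, but evenly divided at 10 min. At 10 min 8.14% of those tested were called at 2-fold or more, 827 higher and 817 lower, whereas at 20 min 0.302% were, 52 higher and 9 lower. The share of rises among them was 50.3% at 10 min, 85.2% at 20 min and 85.3% at 60 min. The difference between these shares was not tested, and the sets were not matched for level or depth. Calls of any size numbered 4601 at 10 min, 384 at 20 min and 997 at 60 min. Of the 93 large rises at 60 min, 83 were positive at 10 min and 67 at 20 min, against 48.1% and 48.6% of all tested. Of the 16 large falls, 14 were negative at 10 min and 16 at 20 min, against 51.9% and 51.4%. Both sets were chosen by their 60 min size, and the shares of all tested are not matched for level.

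The change at 60 min differed from the mean change at 10 and 20 min for 345 identifiers, 1.71% of those tested (edgeR, Benjamini-Hochberg). For 251 of them the CKO to Control ratio was higher at 60 min and for 94 it was lower. They included 114 of the 614 rises, with 109 larger at 60 min and 5 smaller, and 26 of the 383 falls, with 24 larger and 2 smaller. The other 205 were not called at 60 min. The mean joins times that differed, with 4601 calls at 10 min and 384 at 20 min. A deviation at 10 min alone can therefore produce a call, and 60 min was not tested against each shorter time separately. The 60 min change enters both the choice of the rises and falls and the difference tested. This by itself favours changes larger at 60 min among them. Without CKO replicate 1 at 60 min the count was 190 and without CKO replicate 2 it was 831. Leaving out Control replicate 1 or 2 gave 88 and 110. With ERCC scaling 7954 differed, 7926 of them with a lower ratio at 60 min on a scale that also carries the output per spike-in at each time. At 10 min that output was 11.6 and 12.3 mouse counts per ERCC count in Control and 28.6 and 34.3 in CKO. At 20 min it was 45.5 and 45.2 in Control and 60.3 and 59.3 in CKO. Unlike at 60 min, both CKO libraries lay above both Control libraries at these times.

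Across the 9161 identifiers with at least 10 CPM, the 60 min log2 fold changes had a Pearson r of 0.47 with those at 10 min and 0.51 with those at 20 min (Spearman rho 0.42 and 0.46). Those at 10 and 20 min had an r of 0.50 with each other (rho 0.47). The identifiers are not independent replicates, and each value rests on 4 libraries.

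**Figure D5:**
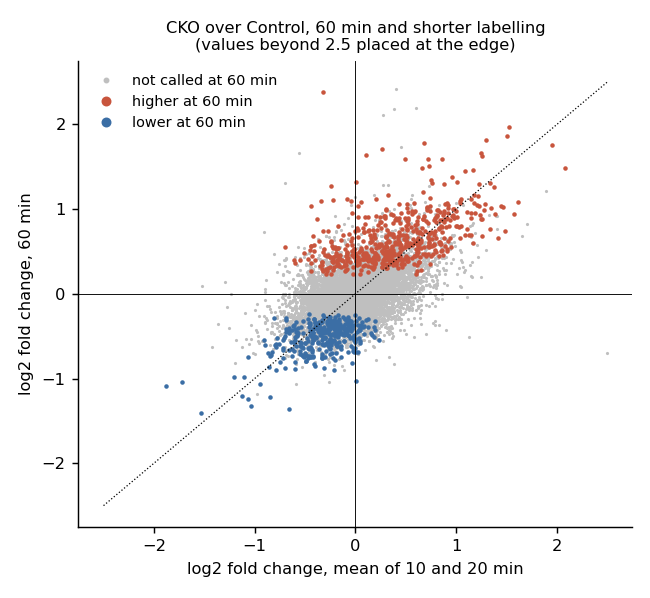
Log2 fold change of CKO over Control at 60 min (y axis) against the mean of the log2 fold changes at 10 and 20 min (x axis), with 1 point per identifier of at least 10 CPM (n = 9161, values beyond 2.5 at the edge). Coloured points were called at 60 min and the dotted line marks equal values. Most coloured points lie in the quadrants of equal sign, and the median rise was 0.59 at 60 min against 0.37 for the shorter pulses.

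The 163 identifiers called without each library in turn were also mostly of the same sign at the shorter times. Of the 112 rises, 96 were positive at 10 min and 101 at 20 min, against 48.1% and 48.6% of all tested. There 74 and 70 were called higher, against 10.9% and 1.24% of all tested. Of the 51 falls, 48 were negative at 10 min and 47 at 20 min, against 51.9% and 51.4% of all tested. There 35 and 20 were called lower, against 11.9% and 0.663%. The 163 lay at 22.1 CPM or more, whereas all tested had a median of 6.75 CPM. Calls at 60 min gathered at high levels, so the shares of all tested are not matched for level. The test of 60 min against shorter labelling called 36 of the 163, against 1.71% of all tested. The 163 were chosen on their 60 min change, which is part of that test, and this by itself raises their share.

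The 30 min libraries gave another picture for the rises. The CKO 30 min libraries had 5188643 and 5109162 mouse counts and stood apart in detecting 30583 and 31826 identifiers, the most in the series. In a fit of all 16 libraries, 279 of the 614 rises at 60 min (45.4%) had a positive log2 fold change at 30 min, with a median of −0.07, against 47.0% of all tested. Of the 383 falls, 377 (98.4%) were negative, with a median of −0.97, against 52.97% of all tested, whose median was −0.09. Of the 112 rises called without each library, 64 were positive at 30 min, against 47.0% of all tested. Of the 51 falls all 51 were negative, against 52.97%. The shares of all tested are not matched for level here either. The part of the 30 min CKO libraries' make-up in these values was not tested.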

How the data were processed

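The deposited files hold raw read counts per gene identifier, 1 file per library. The submitters' processing notes name mm10 as build and list HTSeq, HISAT2 2.1.0, Trimmomatic 0.38 and CASAVA as tools. For annotation release, strand setting and feature type nothing is stated there or in the labels, and antisense, overlapping and near-identical genes therefore have uncertain counts. Members, lists, tests and the choice of libraries were settled with earlier results of these data known. Mouse counts of the 12 libraries at 10, 20 and 60 min were fitted with edgeR 4.0.16 (R 4.3.3, filterByExpr, TMM, robust quasi-likelihood F-test, 6 group means, Benjamini-Hochberg). The 30 min libraries of both genotypes were left out because the CKO ones stand apart and widen the spread estimate. This choice was made with that known, and a fit of all 16 libraries called 723 against the 997 reported. The 20204 identifiers tested held at least 99.9% of the mouse counts of each 60 min library. Errors of log2 fold changes come from the F statistic. Named identifiers were the 2 largest rises and falls among calls with at least 10 CPM and no overlap at 60 min. The gene lists and cell type markers could not be applied without symbols. The fit was run on simulated data with a dispersion of 0.01. It recovered 60 of 100 changes of 1.5-fold and 99 of 100 of 2-fold, with 4 false calls. The CKO replicates at 60 min varied more than the Control replicates, so recovery in these data may differ. Other settings were DESeq2 1.42.0, other scalings and count filters, a replicate block, other sets of libraries and leaving out each 60 min library. The CPM of the named identifiers in single libraries are scaled to each library's mouse counts. Mean levels, the 10 CPM minimum of named identifiers, replicate ratios and the overlap of libraries use TMM-scaled CPM.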

Additional observations from a re-analysis of the deposited data

Results flagged for a closer look

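The test of the 60 min change against shorter labelling called 345 identifiers (edgeR, Benjamini-Hochberg), 251 with a higher and 94 with a lower CKO to Control ratio at 60 min, which singled it out as a difference between time points. At an unadjusted p under 0.05, 2516 identifiers differed.

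Data outside the comparison also held a signal. Of 21770 identifiers without a count in any 60 min library, the CKO 30 min libraries detected 5438 and 5811, and these took 2.42% and 2.26% of their mouse counts. The Control 30 min libraries detected 1259 and 1442, with 0.0320% and 0.0317% of their counts. The other 8 libraries, at 10 and 20 min, had between 0.00988% and 0.0206% of their counts on them.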

How the results depend on the processing

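The replicate numbers did not pair the 60 min libraries, since the deviations of same-numbered libraries from their group means had a correlation of 0.00 over 9161 identifiers. With the replicate number as a block 911 identifiers were called, 888 of them shared with the 997 reported. DESeq2 called 1749, keeping 983 of the 997, with 9009 adjusted values not given. ERCC scaling called 314, and the 4 libraries alone 1744, keeping 851. All 16 libraries gave 723 of 27488 tested, the stricter filter 1333 of 10180 and no filter 1372 of 36732. These counts lay within 1.5 times the 997 of 20204 reported, but the numbers tested differed, so the shares called did too. Leaving out each 60 min library gave 195 to 1553. Calls of at least 2-fold numbered 224 with the 4 libraries alone and 34 to 276 when each library was left out. The test of 60 min against shorter labelling called 733 with DESeq2, 7954 with ERCC scaling, 584 without a filter, and 88 to 831 when each library was left out. The log2 output difference ran from −0.05 without CKO replicate 2, where its sign turned, to 0.23 without CKO replicate 1. The median over ERCC species gave 0.19. The log2 fold changes of the 4 named identifiers kept their direction in each setting that tested them. ENSMUSG00000064823.1 lost its call in 4 of 12 (edgeR adjusted p up to 0.817) and was not tested under the stricter filter, ENSMUSG00000038418.7 in 2 of 13 and ENSMUSG00000057182.14 in 1 of 13. The cause of these shifts was not tested. In the 3 classes of fewest counts the median standard error was 0.35 or more, so modest changes there were often not detectable at this depth.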

Other observations

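At 60 min 26320 identifiers were detected in both genotypes, 2859 in CKO and in no Control library, and 3497 in Control and in no CKO library. Of those seen in CKO alone, 478 had counts in both CKO libraries, and the highest total over both was 29 counts. Of those seen in Control alone, 607 had counts in both Control libraries, with a highest total of 25 counts. The Control libraries were deeper, so these counts do not compare the genotypes, and no identifier seen in a single genotype reached 30 counts.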
